A study of Mus musculus with 17 samples.

Results

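The genes described here are 10 genes that newborn and growing neurons express: Dcx, Sox11, Sox4, Marcksl1, Tubb2b, Stmn1, Gap43, Dpysl3, Igfbpl1 and Cd24a. They were taken by symbol from the expression table, which held 55453 distinct symbols, and all 10 were found. Their levels were read in bulk cortex from 17 male mice, all labelled C57BL/6J. The study describes more than one knockout line: its own indel line on C57BL/6J and a repository line on C57BL/6NJ. The labels do not name the line that was sequenced, but the paper uses KO for its indel line and shows the repository line separately. Hemizygous Hnrnph2-knockout mice (KO, 3 mice) and mice hemizygous for the R206W substitution of hnRNPH2 (3 mice) were 8 weeks old, as were their wild-type littermate controls (3 mice for each line). Mice hemizygous for the P209L substitution (3 mice) and their wild-type littermate controls (2 mice) were 3 weeks old. Hnrnph2 is an X-linked gene for an RNA-binding protein, and in each line every cell of the mouse carries the allele. The labels do not say which animals shared a litter, and each library came from the cortex of 1 mouse, so p-values measure the spread between mice. Only the P209L line was sampled at 3 weeks, so age and line cannot be told apart in any comparison of the ages. Values are transcripts per 1000000 (TPM), so each is corrected for transcript length and is a share of its own sample.

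Cortical neurons are born before birth, migrate and extend axons, and then replace a growth program with synaptic genes over the first weeks of life. Sox11 and Sox4 are SOXC transcription factors that act in newborn neurons, Dcx (doublecortin) binds the microtubules of migrating neurons, and Tubb2b is a beta-tubulin of developing neurons. Stmn1 (stathmin) destabilizes microtubules, Gap43 and Dpysl3 (CRMP4) act in growth cones, Marcksl1 binds actin at the membrane, Cd24a is a surface glycoprotein of young neurons that ependymal cells also carry, and Igfbpl1 is a secreted protein found in neuroblasts. If maturation were delayed, a gene that falls with age would stay nearer its younger level in the mutant, so the members were compared first between the ages and then between each mutant and its own controls.

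Hnrnph2 was 23.1 ± 1.59 TPM (SD, n = 3) in KO mice and 122 ± 35.7 TPM (SD, n = 3) in KO controls, and each KO mouse was below each of its controls. The cortical projection neuron gene Slc17a7 lay between 495 and 912 TPM in the 17 mice. KO control 1 stood apart: mitochondrially encoded genes took 20.1% of its TPM, against 10.7% to 15.4% in the other mice, and the summed TPM of the 10 members was 1043, against 1287 to 1587 elsewhere. Depth is unknown because TPM do not keep it. In bulk tissue, fewer cells of a type and less RNA per cell cannot be told apart.

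The members differed widely in level, from Stmn1 with a mean of 874 TPM over the 17 mice, through Gap43 (214 TPM), Tubb2b (190 TPM) and Marcksl1 (92.3 TPM), to Dpysl3 (16.0 TPM), Dcx (13.9 TPM), Cd24a (9.30 TPM), Sox4 (6.77 TPM) and Sox11 (3.33 TPM). Igfbpl1 was listed at 0.06 to 0.34 TPM and missed the filter of a mean of 1 TPM, so 9 of the 10 members were among the 16265 genes tested. Stmn1 lay at the 99.6th percentile of the tested genes by mean TPM, whereas Sox11 lay at the 19.6th. As a ratio, the lowest and highest mouse differed least, among the tested members, for Stmn1 (641 and 997 TPM) and most for Cd24a (3.95 and 22.4 TPM) and Marcksl1 (40.3 and 179 TPM).

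**Figure D1:**
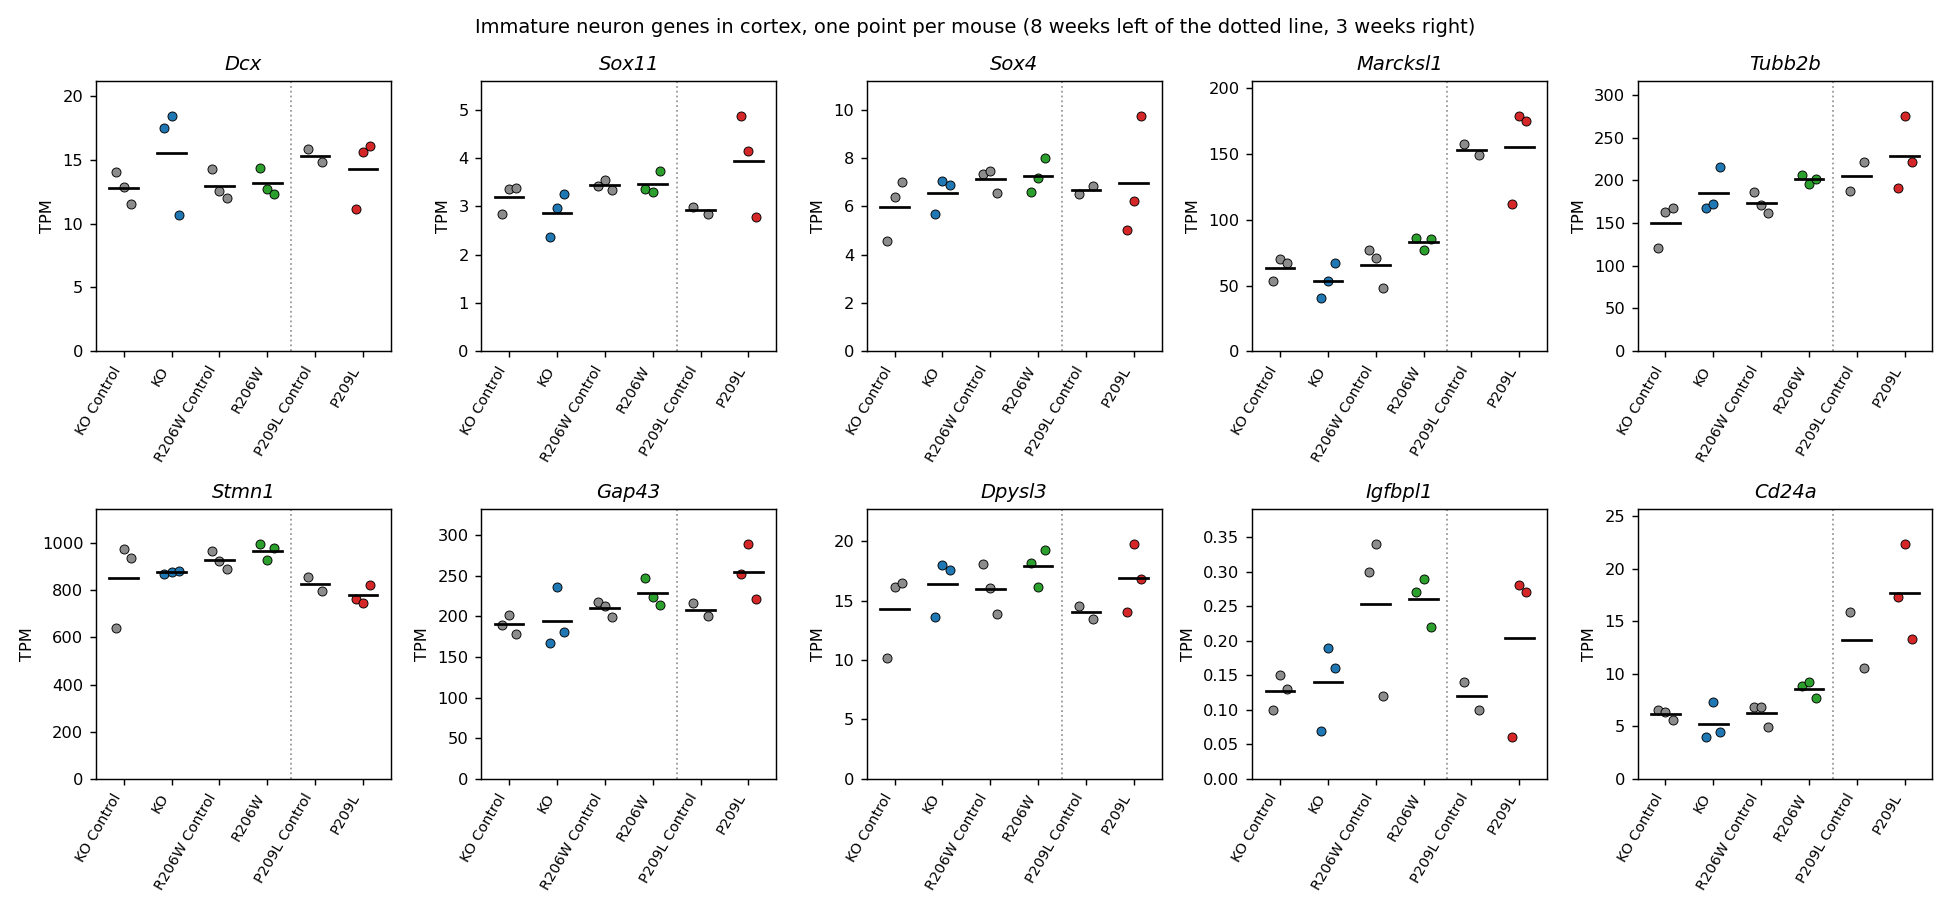
TPM of each of the 10 genes (vertical axes, each starting at 0) in every mouse, by group, with a line at the group mean; the dotted line separates the 8-week groups on the left from the 3-week groups on the right. For Marcksl1 and Cd24a every 3-week mouse lies above every 8-week mouse, and for the other genes the ages share part of their range.

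GENCODE M21 (GRCm38), which may not be the annotation the authors used, lists all 10 as protein-coding genes, and TPM cover the exons of their transcripts. Marcksl1 lies at chr4:129513581-129515985 on the plus strand, Cd24a at chr10:43578284-43584265 on the plus strand, Tubb2b at chr13:34126748-34130466 on the minus strand, Stmn1 at chr4:134468320-134473843 on the plus strand, Gap43 at chr16:42248442-42340651 on the minus strand, Sox11 at chr12:27334264-27342574 on the minus strand and Dcx at chrX:143855842-143933311 on the minus strand. Some members share sequence with other genes, so their TPM depend on how reads were divided. Of the distinct 50-base words in the Tubb2b transcripts, 36.9% also occur in transcripts of another gene, mostly its neighbour Tubb2a. The share was 18.9% for Stmn1, nearly all with the predicted gene Gm11223, 2.75% for Cd24a, 1.61% for Marcksl1 and 0.181% for Dcx, and it was 0 for the other 5 members.

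RefSeq promoters (GRCm38.p6) were at hand for 4 of the 10 members (Marcksl1, Sox11, Sox4 and Dcx). The 250 bases before the start are printed for Marcksl1, the member with the largest difference between control ages, and for Sox11, which did not pass the test between control ages. Capitals mark the E-box CAGCTG, the only letters found in either window among those searched on both strands (TATAAA, the SOX-type words ACAAAG and ACAATG, and the E-boxes CAGATG and CAGCTG). The windows lie at chr4:129513331-129513580 on the plus strand for Marcksl1 and at chr12:27342719-27342968 on the minus strand for Sox11.
Marcksl1: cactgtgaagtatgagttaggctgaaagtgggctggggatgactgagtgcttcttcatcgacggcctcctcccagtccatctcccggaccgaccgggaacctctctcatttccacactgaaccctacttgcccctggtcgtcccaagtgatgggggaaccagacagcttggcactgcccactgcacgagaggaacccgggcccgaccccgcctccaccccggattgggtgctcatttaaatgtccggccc
Sox11: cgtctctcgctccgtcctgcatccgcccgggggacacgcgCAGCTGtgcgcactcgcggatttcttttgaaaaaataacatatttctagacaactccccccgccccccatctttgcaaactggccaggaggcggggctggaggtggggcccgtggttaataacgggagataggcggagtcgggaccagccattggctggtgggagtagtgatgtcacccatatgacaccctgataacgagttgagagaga
The Marcksl1 window held none of the 5 words and had a GC content of 60.4%, against 58.0% for Sox11. CAGCTG occurs in 13.0% of the 32851 RefSeq promoter windows of this length, TATAAA in 12.4%, ACAAAG in 16.5%, ACAATG in 10.7% and CAGATG in 14.4%. Sox4 also held CAGCTG. The Dcx windows, from a pair of annotated starts, overlap, and the TATAAA in both is the same site. The second Dcx window also held ACAAAG. A match of letters does not show that a factor binds there.

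Between the control ages, 2 of the 9 tested members passed the test, and both were higher at 3 weeks. Marcksl1 was 153 ± 5.79 TPM (SD, n = 2) in 3-week controls and 64.3 ± 11.3 TPM (SD, n = 6) in 8-week controls, and Cd24a was 13.2 ± 3.79 TPM (SD, n = 2) and 6.2 ± 0.764 TPM (SD, n = 6). Over all genes 36.1% passed (limma on log2(TPM + 1), adjusted p under 0.05), so the members' 2 of 9 is not a larger share than the background. The other 7 members, among them Dcx, Sox11 and Sox4, did not pass. The members' median log2 difference was 0.06, against -0.12 over all tested genes. Of the genes that passed, 1837 were higher and 4039 lower at 3 weeks, whereas quantile normalization gave 3662 higher and 3570 lower and median-of-ratios size factors 3239 and 3879.

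Marcksl1 gave 157 and 149 TPM in the 3-week controls. The 8-week controls gave 53.1, 70.2 and 66.8 TPM in the KO line and 76.9, 71.0 and 48.1 TPM in the R206W line. The groups did not overlap, and the lowest 3-week control lay well above the highest 8-week control. This gave a log2 difference of 1.26 ± 0.21 (SE; limma, adjusted p = 0.00047), a fold of 2.39 on the scale of TPM + 1.

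Cd24a gave 15.9 and 10.5 TPM in the 3-week controls. The 8-week controls gave 6.52, 6.37 and 5.63 TPM in the KO line and 6.86, 6.88 and 4.95 TPM in the R206W line. The groups again did not overlap, although the 3-week controls were themselves far apart. On the log2 scale the difference was 0.96 ± 0.21 (SE; limma, adjusted p = 0.00282). Without P209L control 1 it was 0.68 with an adjusted p of 0.087, so the call rested on that mouse.

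Of the microtubule genes, Tubb2b came nearest to the threshold. It gave 188 and 222 TPM in the 3-week controls, 121, 163 and 167 TPM in the KO controls and 186, 171 and 162 TPM in the R206W controls. Every 3-week control was above every 8-week control, the highest 8-week value by little. The log2 difference was 0.35 ± 0.15 (SE; limma, adjusted p = 0.0832). Its near copy Tubb2a had a difference of 0.35 as well, with an adjusted p of 0.161 in limma. Dcx gave 15.8 and 14.8 TPM against 14.02, 12.9 and 11.5 TPM in the KO controls and 14.3, 12.5 and 12.02 TPM in the R206W controls. These ranges did not overlap either, but the log2 difference was 0.24, with a 95% interval of -0.13 to 0.61 and an adjusted p of 0.302 (limma).

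The remaining members differed little between control ages. Stmn1 gave 857 and 796 TPM at 3 weeks and 641 to 975.41 TPM at 8 weeks, a log2 difference of -0.09 (95% interval -0.36 to 0.18). The 8-week range is wide because KO control 1 gave the lowest value. Without that mouse the Stmn1 difference was -0.19, with an adjusted p of 0.0296 in limma. Gap43 gave 216 and 200 TPM against 178 to 217 TPM (log2 difference 0.06, 95% interval -0.21 to 0.33). Dpysl3 gave 14.6 and 13.5 TPM against 10.2 to 18.1 TPM (log2 difference -0.08, 95% interval -0.45 to 0.29). The SOXC factors overlapped between the ages in part: Sox4 gave 6.52 and 6.83 TPM against 4.57 to 7.49 TPM (log2 difference 0.03, 95% interval -0.35 to 0.42), and Sox11 gave 2.99 and 2.85 TPM against 2.85 to 3.54 TPM (log2 difference -0.14, 95% interval -0.45 to 0.17). Igfbpl1 was listed at 0.14 and 0.10 TPM against 0.10 to 0.34 TPM, too low to compare. In all, 4 members (Dcx, Marcksl1, Tubb2b and Cd24a) did not overlap between control ages, beside 38.2% of all tested genes. With size factors it was 3, without Dcx, beside 49.8%.

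The mutant mice give the same age step in animals that the control comparison did not use, although genotype differs as well. Again 2 of 9 members passed, Marcksl1 and Cd24a, beside 45.9% of all genes (limma, adjusted p under 0.05). Marcksl1 gave 112, 179 and 176 TPM in P209L mice, 40.3, 53.8 and 67.1 TPM in KO mice and 85.9, 77.4 and 85.2 TPM in R206W mice. The log2 difference was 1.19 ± 0.18 (SE; limma, adjusted p = 0.000156). Cd24a gave 17.3, 22.4 and 13.3 TPM in P209L mice, 3.95, 7.35 and 4.44 TPM in KO mice and 8.88, 9.21 and 7.66 TPM in R206W mice. Its log2 difference was 1.26 ± 0.18 (SE; limma, adjusted p = 9.74e-05). For both genes each P209L mouse exceeded all 6 of the 8-week mutants.

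Stmn1 was the member that did not overlap in the other direction: it gave 765, 747 and 824 TPM in P209L mice against 869 to 997 TPM in the KO and R206W mice. Its log2 difference was -0.24 (limma, adjusted p = 0.0784). Gap43 gave 252, 289 and 221 TPM in P209L mice against 167 to 247 TPM, a log2 difference of 0.27 (limma, adjusted p = 0.0568). Both lie close to the threshold, and both passed it when the values were scaled by quantiles (log2 differences of -0.34 and 0.33, limma adjusted p of 0.00596 and 0.0425). With median-of-ratios size factors 5 of the 9 members passed, and with quantile normalization 6 did, each beside 51% of all genes. In this comparison 3 members did not overlap, beside 40.2% of all genes (with size factors also 3, beside 40.8%, with Tubb2b higher in place of Stmn1), and the members' median was 0.23, against -0.16 for all genes.

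**Figure D2:**
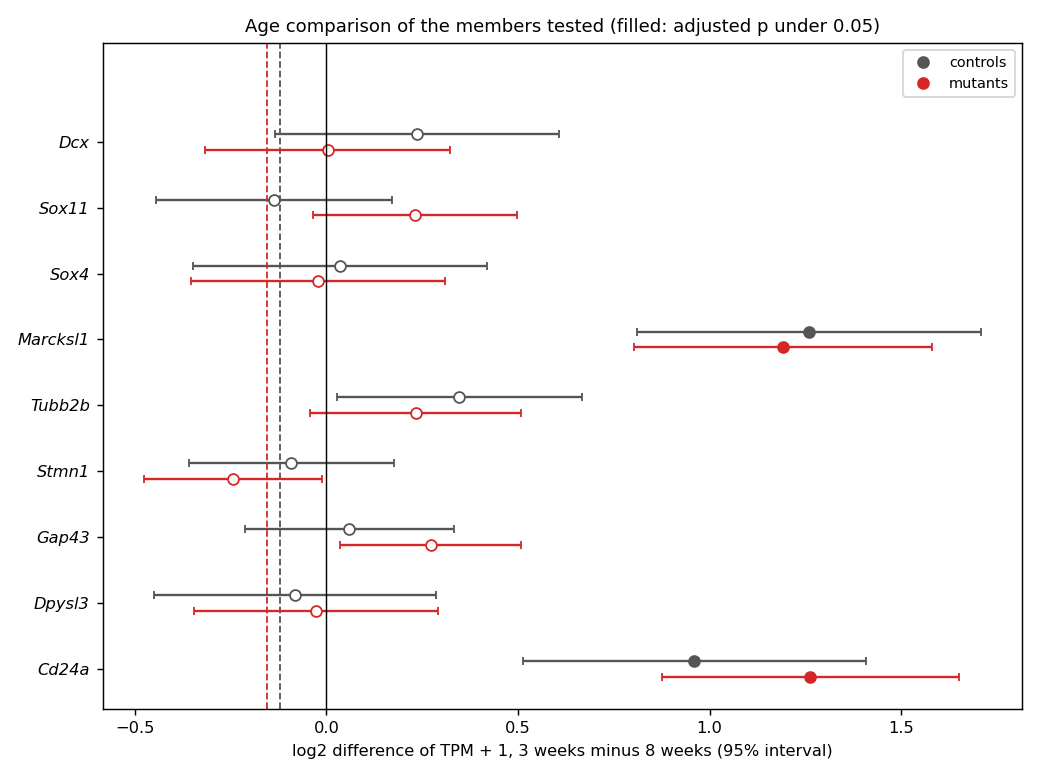
Log2 difference of TPM + 1 at 3 weeks minus 8 weeks (horizontal axis, points with 95% intervals) for the 9 tested members, in controls (grey) and in mutants (red); filled points passed an adjusted p of 0.05, and dashed lines show the median of all tested genes, -0.12 in controls and -0.16 in mutants. Marcksl1 (1.26 and 1.19) and Cd24a (0.96 and 1.26) stand apart from the 7 open points on each side.

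The age difference of a gene went with the length of its transcripts. In controls, the 6375 tested genes with a median annotated transcript under 1000 bases had a median log2 difference of 0.02. The median was -0.09 for genes of 1000 to 1999 bases, -0.22 for 2000 to 2999 bases, -0.32 for 3000 to 3999 bases, -0.44 for 4000 to 5999 bases and -0.57 for the 238 genes of 6000 bases or more. Cd24a (743 bases), Stmn1 (802 bases), Gap43 (1090 bases), Tubb2b (1306 bases) and Marcksl1 (1605 bases) lie on the short side, and Dcx (3157 bases), Sox4 (4795 bases) and Sox11 (8311 bases) on the long side. Sox11 is thus longer than 99.6% of the tested genes, and its difference of -0.14 lay above the median of genes of its length.

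When the trend of length and GC content was taken out of each sample, a step chosen after the values were seen, 6 of the 9 members passed between control ages, beside 44.6% of all genes, and all 6 were higher at 3 weeks. Marcksl1 and Cd24a passed as before, with log2 differences of 1.27 and 0.97. Tubb2b passed with 0.37 (limma, adjusted p = 0.00662). Dcx passed with 0.65 (limma, adjusted p = 0.00239), Sox4 with 0.45 (limma, adjusted p = 0.0094) and Sox11 with 0.49 (limma, adjusted p = 0.0226). The sign of Sox11 turned, and so did that of Dpysl3, which did not pass. The members' median became 0.45 and that of all genes 0.01. In the mutant mice 7 members passed after this step, beside 53.6% of all genes: Cd24a, Marcksl1, Sox11, Sox4, Tubb2b and Gap43 were higher and Stmn1 was lower at 3 weeks. Whether the length trend arose in the tissue, the RNA or the libraries was not tested. The R206W and P209L comparisons with their own controls showed no median further than 0.03 from 0 in any length group. In the KO comparison the medians ran from 0.08 in the shortest group to 0.01 in the longest.

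**Figure D3:**
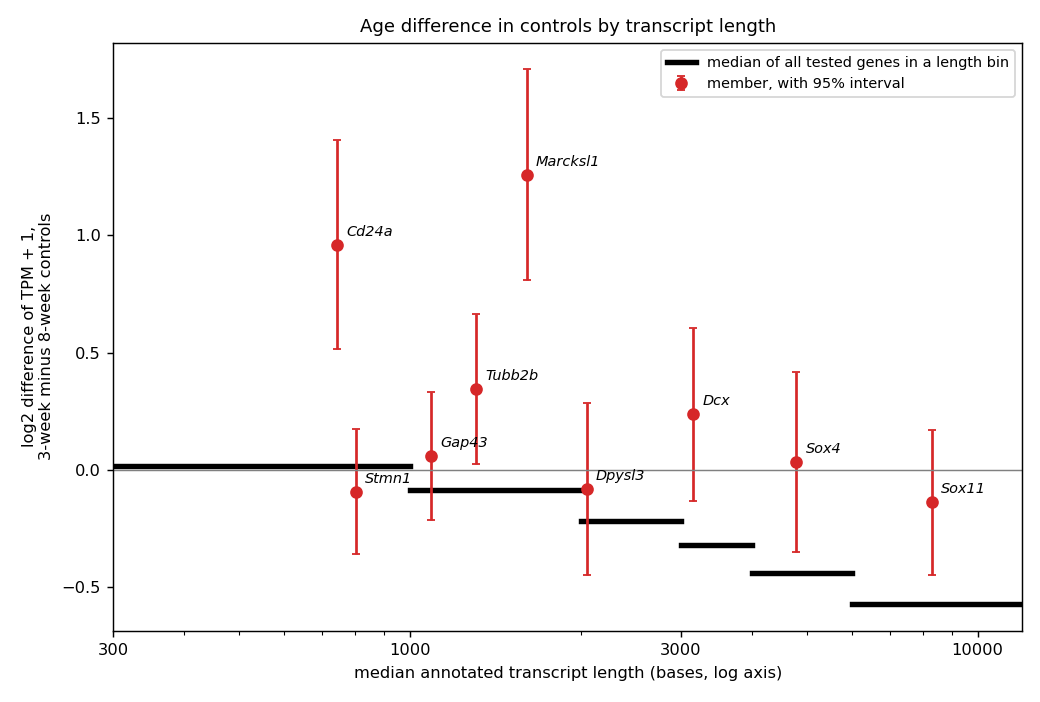
Log2 difference of TPM + 1 between 3-week and 8-week controls (vertical axis) against median annotated transcript length in bases (log axis), with the median of all tested genes in each length group as a black bar and each tested member as a red point with its 95% interval. The bars fall from 0.02 to -0.57 with length, and Dcx, Sox4 and Sox11 lie above the bar at their length while Marcksl1 and Cd24a lie far above theirs.

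Against their own controls, none of the 9 tested members passed in any mutant line. In KO mice 0 of 9 passed, beside 0.00615% of all genes (limma, adjusted p under 0.05), and 0 at an unadjusted p under 0.05, beside 4.08%. In R206W mice 0 of 9 passed, beside 0.0369%, and 0 unadjusted, beside 2.19%. In P209L mice 0 of 9 passed, beside 0.0984%, and 0 unadjusted, beside 7.46%. So few genes of any kind passed that the adjusted counts say little about the members. The signs were mixed in KO mice, with 6 of 9 above 0 beside 67.3% of all genes (median 0.07, against 0.06 over all genes). In P209L mice 6 of 9 were above 0 beside 53.5% (median 0.15, against 0.02). In R206W mice all 9 were above 0, beside 52.9% of all genes. Their log2 differences were 0.01 to 0.42, with a median of 0.12 against 0.01 over all genes. The sign of Sox11, Sox4 and Dcx there turned when single mice were left out, that of Sox11 and Sox4 with sample weights, and that of Sox4 with the length and GC trend taken out.

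Marcksl1, which had the largest age difference in controls, gave 85.9, 77.4 and 85.2 TPM in R206W mice and 76.9, 71.0 and 48.1 TPM in their controls. The groups did not overlap, but the lowest R206W value was close to the highest control. The log2 difference was 0.36, with a 95% interval of -0.08 to 0.81 (limma, adjusted p = 1). In KO mice it gave 40.3, 53.8 and 67.1 TPM against 53.1, 70.2 and 66.8 TPM, a log2 difference of -0.25 (95% interval -0.70 to 0.19). In P209L mice it gave 112, 179 and 176 TPM against 157 and 149 TPM, a log2 difference of -0.01 (95% interval -0.51 to 0.49).

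Cd24a, the other member with an age difference, gave 8.88, 9.21 and 7.66 TPM in R206W mice and 6.86, 6.88 and 4.95 TPM in their controls, with no overlap. The log2 difference was 0.42 (95% interval -0.03 to 0.86). In P209L mice it gave 17.3, 22.4 and 13.3 TPM against 15.9 and 10.5 TPM, a log2 difference of 0.39 (95% interval -0.11 to 0.89), with overlap. That value was 0.12 without P209L control 2, 0.22 without P209L mouse 2 and 0.67 without P209L control 1. In KO mice it gave 3.95, 7.35 and 4.44 TPM against 6.52, 6.37 and 5.63 TPM, a log2 difference of -0.24 (95% interval -0.68 to 0.21). The gene was thus higher on average in both knockin lines and lower in KO mice, and none of these differences passed.

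With both knockin lines averaged, the Cd24a log2 difference was 0.40, with an interval of 0.07 to 0.74, and it was 0.27 without P209L control 2. This was the only member under an unadjusted p of 0.05 (limma, adjusted p = 0.757), 1 of 9 beside 5.32% of all genes. After adjustment 0 of 9 members passed, beside 0.178%. Gap43 was next, with a log2 difference of 0.20 (limma, adjusted p = 0.962). The KO effect on Cd24a minus the R206W effect was -0.65 (limma, adjusted p = 1), again 1 of 9 beside 2.29% unadjusted and 0 of 9 beside 0.0307% adjusted. For Marcksl1 that difference was -0.62 (95% interval -1.25 to 0.02). The P209L effect minus the KO effect was 0.63 for Cd24a and 0.44 for Sox11, with 0 of 9 members under an unadjusted p of 0.05, beside 7.98%, and 0 adjusted, beside 0.0492%. Between the P209L and R206W effects 0 of 9 members passed, with 0% of all genes passing and 0 of 9 members under an unadjusted p of 0.05 beside 3.98%. The knockin lines therefore did not differ detectably from each other in any tested member, with a 95% interval of -0.69 to 0.65 for Cd24a and -1.05 to 0.30 for Marcksl1.

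Tubb2b gave 168, 173 and 216 TPM in KO mice against 121, 163 and 167 TPM, and 205.75, 196 and 202 TPM in R206W mice against 186, 171 and 162 TPM. Neither pair of groups overlapped. The log2 differences were 0.31 in KO mice (95% interval -0.01 to 0.63), 0.22 in R206W mice (95% interval -0.10 to 0.54) and 0.15 in P209L mice (95% interval -0.21 to 0.51). Without KO control 1, the mouse with the lowest Tubb2b, the KO difference was 0.16, and without P209L mouse 2 the P209L difference was 0.0094. In P209L mice Gap43 was the member that did not overlap, with 252, 289 and 221 TPM against 216 and 200 TPM and a log2 difference of 0.28 (95% interval -0.02 to 0.59). Across the lines, 1 member did not overlap in KO mice (6.25% of all genes), 3 in R206W mice (16.2%) and 1 in P209L mice (24.9%). With size factors these were 2 in KO mice (Sox11 joined, lower, beside 7.29%), the same 3 in R206W mice (17.7%) and 1 in P209L mice (26.7%), where Dpysl3 took the place of Gap43.

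The SOXC factors and Dcx showed no common direction. Sox11 gave 4.87, 4.16 and 2.79 TPM in P209L mice against 2.99 and 2.85 TPM (log2 difference 0.31, 95% interval -0.03 to 0.65). In KO mice it gave 2.37, 2.96 and 3.25 TPM against 2.85, 3.36 and 3.38 TPM, a log2 difference of -0.12. Sox4 in P209L mice ranged from 5.02 to 9.74 TPM around its controls, with a log2 difference of 0.02. Dcx gave 17.5, 18.4 and 10.6 TPM in KO mice against 11.5 to 14.02 TPM, so that 2 KO mice lay above and 1 below every control (log2 difference 0.22, 95% interval -0.15 to 0.59). Its differences were 0.02 in R206W and -0.11 in P209L mice. Dpysl3 had log2 differences of 0.21, 0.15 and 0.24 in KO, R206W and P209L mice, and Stmn1 of 0.07, 0.06 and -0.09. Igfbpl1, fitted without the filter, stayed within 0.10 of 0 in each line.

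**Figure D4:**
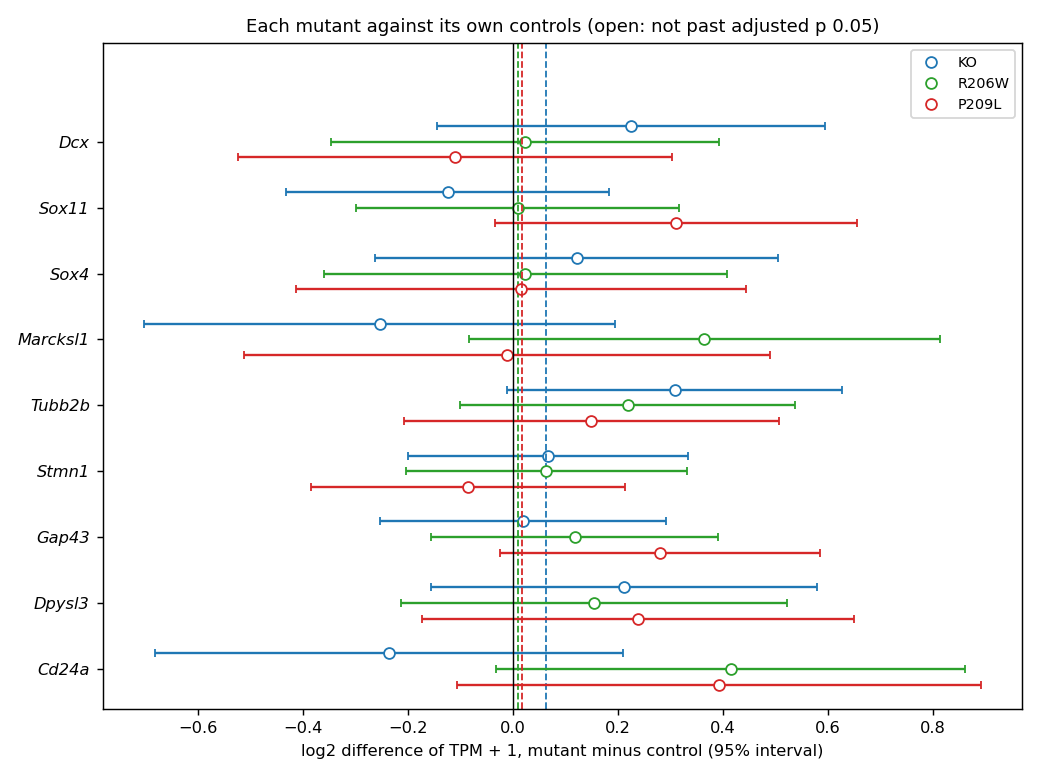
Log2 difference of TPM + 1, mutant minus own controls (horizontal axis, points with 95% intervals), for the 9 tested members in KO (blue), R206W (green) and P209L (red) mice; dashed lines show the median of all tested genes. All points are open, since none passed an adjusted p of 0.05; Cd24a lies at 0.42 and 0.39 in the knockin lines and at -0.24 in KO mice.

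The size of the differences between wild-type groups of a single age gives a scale. Between the R206W and KO controls 0 of 9 members passed, with 0% of all genes passing, and 0 were under an unadjusted p of 0.05 beside 3.12% (limma). All 9 were above 0, with a median of 0.14, but so were 83.9% of all genes, whose median was 0.13. Without KO control 1 these medians were 0.04 and -0.00144.

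Other genes of the program were read from 4 fixed lists, beside 11.3% of all genes higher and 24.8% lower at 3 weeks in controls. Of 22 growth and cytoskeleton genes, 6 were higher and 2 lower at 3 weeks in controls and 14 did not pass, with a median log2 difference of 0.06 against -0.12 over all genes. The share that passed in either direction is thus close to the 36.1% of all genes. By direction, more of the passing list genes were higher than lower, whereas over all genes more were lower. Map1b and Dclk1, named next for their low p, are the 2 lower ones. Map1b, a microtubule-associated protein, was lower by 1.61 on the log2 scale in the younger mice (limma, adjusted p = 0.000167). Dclk1, a relative of Dcx, was lower by 0.70 (limma, adjusted p = 0.00662). Stmn3, a stathmin relative, was higher by 0.44 in the younger mice (limma, adjusted p = 0.00624). Of 13 tested transcription factors of newborn neurons (16 listed), 1 was higher, 7 were lower and 5 did not pass, with a median of -0.67. The named ones were Zeb1 (-0.72), Myt1l (-1.24) and Insm1 (-0.82), with limma adjusted p of 8.18e-05, 9.8e-05 and 0.000843. Neurod6 and Tbr1 of this list also serve below as cortical excitatory neuron markers, so the list is not confined to newborn neurons. Of 9 tested surface and adhesion genes (12 listed), 6 were lower, 0 higher and 3 did not pass, with a median of -0.65. The guidance receptor Robo1 (-0.82), the polysialic acid enzyme St8sia4 (-0.66) and the adhesion molecule Chl1 (-0.65) led them, with limma adjusted p of 0.00223, 0.00237 and 0.00539.

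Of 14 mature neuron genes 7 were lower at 3 weeks, 0 higher and 7 did not pass, with a median of -0.63, against 24.8% lower and a median of -0.12 over all genes. At 3 weeks Map2, of dendritic microtubules, was lower by 0.93, Snap25, of the release machinery, by 0.88 and Syt2, a synaptic calcium sensor, by 1.39 (limma, adjusted p of 6.71e-05, 0.000679 and 0.0041). The transcription factor, surface and mature lists therefore had medians on the same side of 0 in the younger mice. After length and GC content were taken out, the counts were 10 higher and 4 lower of 22 growth and cytoskeleton genes, 2 higher and 8 lower of 13 transcription factors, 0 higher and 3 lower of 9 surface genes, and 0 higher and 8 lower of 14 mature genes, beside 21.8% of all genes higher and 22.8% lower. St8sia4 and Chl1 then no longer passed (limma, adjusted p of 0.195 and 0.136). In the mutants of both ages the counts at 3 weeks were 5 higher and 4 lower, 0 and 8, 0 and 6, and 0 and 11, in the same order of lists, beside 13.9% of all genes higher and 32.1% lower. In KO, R206W and P209L mice against their own controls 0 genes of the 4 lists passed.

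Markers of cells that could bring these transcripts into a cortical dissection were read beside the members. Neuroblast markers (7 genes, 4 tested) summed to 15.4 to 29.2 TPM over all mice and to 18.6 to 19.6 TPM in the 3-week controls. None of the 4 tested, Dlx1, Dlx2, Dlx5 and Dlx6, passed between control ages, and Sp8, Sp9 and Prokr2 missed the filter. Whether other cortical cells carry these Dlx transcripts was not tested, so the list does not measure neuroblasts alone. Markers of dividing cells were low, with Mki67 at 0.17 to 0.47 TPM. Of the dentate granule cell markers, Prox1 was lower and Calb2 higher at 3 weeks in controls, and Dsp stayed at or under 0.07 TPM. Expression of Prox1 and Calb2 in other cortical cells was not tested, so they do not measure dentate cells alone. Ependymal markers (6 genes, 3 tested) summed to 19.97 and 21.4 TPM in the 3-week controls and to 9.10 to 16.3 TPM in the 8-week controls. Of these markers 1, Rarres2, was higher at 3 weeks (log2 difference 0.87, limma, adjusted p = 0.0109). Foxj1 and Ccdc153, which define these cells, did not pass (0.21 and 0.77). P209L mouse 2 had the highest ependymal sum, 56.1 TPM, with Ccdc153 at 18.0 TPM against 0.11 to 2.88 TPM in the other mice. It also had the highest TPM of Cd24a, Marcksl1, Tubb2b, Gap43 and Dpysl3. Without it the Cd24a age difference in mutants was 1.09 and that of Marcksl1 1.08 (limma, adjusted p of 0.00135 and 0.00209).

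Oligodendrocyte and vascular markers also moved between the groups. Mature oligodendrocyte genes (5 genes) summed to 3764 and 5629 TPM in the 3-week controls, to 2278 to 3307 TPM in P209L mice and to 2482 to 3303 TPM in the 8-week controls, and 3 of 5 were higher in the 3-week controls than in the 8-week controls. Precursor and newly formed oligodendrocyte genes (8 genes) summed to 117 and 153 TPM in the 3-week controls, 81.2 to 106 TPM in P209L mice and 78.5 to 130 TPM in the 8-week controls. Of these, 3 of 8 were higher in the 3-week controls. At 3 weeks in controls 2 of 5 astrocyte, 3 of 5 microglia and 2 of 4 endothelial genes were lower, beside 24.8% of all genes, and the others did not pass. Leptomeningeal fibroblast and striatal neuron genes gave 0 calls of 5 and 0 of 5 there. Of the cortical neuron markers, 3 of 6 excitatory and 1 of 5 inhibitory genes were lower at 3 weeks in controls. In KO, R206W and P209L mice against their own controls 0 genes of these marker lists passed. The 5 mature oligodendrocyte genes had log2 differences of -1.08 to -0.68 in P209L mice against their controls, each under an unadjusted p of 0.05 (limma, adjusted p of 0.141 to 0.322). The part of these cells in the Marcksl1 and Cd24a differences was not tested.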

How the data were processed

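Cortex RNA of 17 male mice was sequenced from stranded total RNA libraries (TruSeq). The authors deposited TPM per gene symbol with a column per mouse. The submitters' processing notes name Trim Galore, STAR 2.7.1a, GATK 4.0.4.0, RSEM and mm10, and the annotation is not given in the sources used here. Each column summed to 1000000 TPM, so depth, counting error and detection limits are unknown. The 55573 entries held 120 repeats of a symbol, which were summed. The 16265 genes whose mean reached 1 TPM were analysed as log2(TPM + 1) with limma 3.58.1 in R 4.3.3, using a mean for each of 6 groups, eBayes with trend=TRUE, two-sided tests and Benjamini-Hochberg adjustment over all genes of a contrast (threshold 0.05). The test was checked on simulated data. Named genes were all members, near copies sharing reads, and for each list at most the 3 passing genes of lowest p. Members and lists were chosen with earlier results of these data known. Transcript lengths, shared 50-base words and locations came from GENCODE M21, which held 98.3% of symbols, and lengths covered 99.2% of tested genes. Alternatives were a pseudocount of 0.1, no filter or a filter at 5 TPM, size factors, sample weights, quantile normalization, leaving out mitochondrial genes, robust=TRUE, fits of the compared groups only, a replicate block, each mouse left out, and, added later, removal of length and GC trends.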

Additional observations from a re-analysis of the deposited data

Results flagged for a closer look

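Among the 6 controls aged 8 weeks, KO control 1 lay far below the others for 3 members: Sox11 at 2.85 TPM, Tubb2b at 120.85 TPM and Stmn1 at 641.34 TPM. Chance alone sets such a mouse apart in about 1 in 20 groups of this size, and all 3 values come from the same mouse. It is also the mouse in which mitochondrially encoded genes took 20.1% of TPM and the 10 most abundant genes 36.5%. The part of this composition in the 3 values was not tested. With the mitochondrial genes removed and the values rescaled, 2 of 9 members passed between control ages, as before. The share of all genes passing was 40.3% in that setting, against 36.1% before.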

How the results depend on the processing

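The direction and the call of Marcksl1 between the ages held under every alternative run (log2 difference 1.16 to 1.39 in controls and 1.08 to 1.43 in mutants), and so did those of Cd24a in mutants (1.09 to 1.47). In controls Cd24a fell under the threshold without P209L control 1. Between control ages 4 members passed with sample weights (58.2% of all genes) and 6 with length and GC trends removed (44.6%), and leaving out a mouse gave 1 to 3. Between mutant ages 5 passed with size factors (51% of all genes), 6 with quantile normalization (51%), 6 with sample weights (55.5%) and 7 with the trends removed (53.6%), and leaving out a mouse gave 2 to 4 (4 without P209L mouse 3, 2 or 3 otherwise). For the fits that left out a mouse, at either comparison of ages, the share of all genes passing is not given here. Their counts therefore cannot be read as a result about the members. Tubb2b passed between control ages with size factors (0.46), quantile normalization (0.44), sample weights (0.29) and the trends removed (0.37). Sample weights, which gave KO control 1 a weight of 0.0819, made Dcx (0.41) and Marcksl1 (-0.63) pass in KO mice, 2 members. They also made 1 member, Marcksl1 (-0.95), pass for the KO effect minus the R206W effect. The share of all genes passing there with sample weights is not given here, so these counts cannot be read as a result about the members. With size factors 2 members did not overlap in KO mice. No other count of members in a mutant comparison moved, although with size factors Dpysl3 replaced Gap43 as the member without overlap in P209L mice.

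Several small differences, none of which passed as reported, changed sign. With the trends removed the values were Sox11 0.49 and Dpysl3 0.067 between control ages, Sox4 0.44 and Dpysl3 0.22 between mutant ages, Stmn1 -0.029 and Gap43 -0.025 in KO mice, Sox4 -0.0043 in R206W mice, Marcksl1 0.080 in P209L mice. With sample weights the values were Sox4 -0.028 between control ages, Dcx -0.026, Sox4 0.044 and Dpysl3 0.15 between mutant ages, Sox4 -0.079, Stmn1 -0.14, Gap43 -0.12 and Dpysl3 -0.12 in KO mice, Sox11 -0.028 and Sox4 -0.040 in R206W mice, Marcksl1 0.10 in P209L mice. With size factors the values were Stmn1 0.021 and Dpysl3 0.026 between control ages, Sox4 0.12 and Dpysl3 0.13 between mutant ages, Stmn1 -0.015 and Gap43 -0.062 in KO mice. With quantile normalization the values were Dpysl3 0.089 between control ages, Sox4 0.19 and Dpysl3 0.17 between mutant ages, Gap43 -0.024 in KO mice. Without mitochondrial genes the values were Dcx -0.00097 between mutant ages. With the replicate number as a block the values were Sox4 -0.062 in P209L mice. Leaving out single mice turned further signs, with ranges of log2 difference of Sox4 -0.043 to 0.089 between control ages, Dcx -0.11 to 0.16, Dpysl3 -0.14 to 0.091, Sox4 -0.26 to 0.16 between mutant ages, Dpysl3 -0.00041 to 0.33, Gap43 -0.13 to 0.12, Sox4 -0.034 to 0.23, Stmn1 -0.13 to 0.18 in KO mice, Dcx -0.039 to 0.089, Sox11 -0.034 to 0.036, Sox4 -0.041 to 0.082 in R206W mice, Dcx -0.20 to 0.046, Marcksl1 -0.13 to 0.21, Sox4 -0.22 to 0.20 in P209L mice. 

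Medians of all genes moved with scaling: between control ages from -0.12 to -0.02 with size factors and 0.01 with quantile normalization, and between mutant ages from -0.16 to -0.01 with size factors. The higher calls among all genes then rose from 31.3% to 45.5% and 50.6% in controls, and from 30.2% to 47.8% and 50.2% in mutants. With the trends removed they were 48.9% and 50.04%, with medians near 0.

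The deviations of same-numbered mice had correlations of 0.117, -0.0581 and 0.331 in the KO line and -0.0283, -0.0297 and -0.113 in the R206W line. In the P209L line they were 0.0814 and 0.00276. These values do not show that the numbers pair the mice, and with so few mice per group they cannot exclude it. With the replicate block Gap43 passed between mutant ages (0.27, limma adjusted p = 0.0331), giving 3 members beside 49.4% of all genes. Between control ages 2 members passed, beside 36.2%. In the KO, R206W and P209L comparisons 0 passed with the block. Depth limits cannot be given for TPM, and 2 mice in the P209L control group limit every 3-week comparison.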

Other observations

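Sox12, the remaining SOXC factor, passed between the control ages. It was singled out after its values were seen. It gave 10.4 and 11.1 TPM in the 3-week controls, 5.65, 6.78 and 7.64 TPM in the KO controls and 7.39, 7.05 and 6.75 TPM in the R206W controls, with no overlap and a log2 difference of 0.58 (limma, adjusted p = 0.00143). With length and GC trends removed it was 0.87, and Sox4 (0.45) and Sox11 (0.49) passed as well. Whether the 3 genes differ from each other was not tested. In the mutants Sox12 gave 7.96, 10.1 and 8.66 TPM in P209L mice, all above the 7.51, 7.88 and 7.43 TPM of R206W mice but overlapping the 8.36, 8.74 and 9.93 TPM of KO mice, a log2 difference of 0.09 (limma, adjusted p = 0.486). In KO mice Sox12 exceeded each of its controls, with a log2 difference of 0.39 (limma, adjusted p = 0.999). The difference between the control and mutant age steps was not tested. Tmsb4x, which encodes the actin-binding peptide thymosin beta 4, gave 2137 and 1772 TPM in the 3-week controls and 1031 to 1743 TPM in the 8-week controls (log2 difference 0.63, limma, adjusted p = 0.00933). It was also higher in P209L mice (2609, 2665 and 2185 TPM) than in KO and R206W mice (990 to 1369 TPM), by 1.08 on the log2 scale (limma, adjusted p = 6.01e-05). Microglia and endothelial cells express Tmsb4x as well. Their marker genes were lower in P209L mice than in the 8-week mutants for 3 of 5 and 3 of 4 genes, beside 32.1% of all genes. The part of these cells in the Tmsb4x difference was not tested.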
